A study of Mus musculus with 45 samples.

Results

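Genes that mark the subfields of the mouse hippocampus were followed through RNA sequencing of 3 brain regions. These 10 genes are 3 of CA1 (Wfs1, Fibcd1 and Mpped1), 2 of CA3 (Iyd and Bok) and 5 of the dentate gyrus (Prox1, Dsp, C1ql2, Lct and Tdo2). They were taken by name as known subfield markers and are 10 of the 18135 genes in the table. The samples were hippocampus, striatum and prefrontal cortex (called cortex here) of male C57BL/6J mice aged 13 weeks, with 5 samples for each region and genotype and 45 samples in all. The genotypes were WT, Shank3-HT (heterozygous) and Shank3-HM (homozygous, labelled knock-out), the mutant allele being a germline deletion of part of Shank3, which encodes a scaffold protein of excitatory postsynapses. The comparisons ask how the levels of these genes vary with brain region and with the dosage of Shank3.

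The hippocampus passes its signals along a chain of excitatory neurons, from the granule cells of the dentate gyrus through their mossy fibers to the pyramidal cells of CA3, and from there to those of CA1. Each of these cell types expresses genes that the other subfields largely lack, so marker genes can track the parts of a dissected hippocampus. The samples were whole tissue, in which fewer cells of a type and less RNA per cell cannot be told apart.

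The CA1 genes encode an endoplasmic reticulum membrane protein (Wfs1), a transmembrane receptor that binds acetylated sugars and proteins (Fibcd1) and a protein with a metallophosphoesterase domain (Mpped1). In the GRCm38 annotation they lie at chr5:36966104-36989205 on the minus strand, chr2:31813290-31846005 on the minus strand and chr15:83779467-83858494 on the plus strand. Of the CA3 genes, Iyd (chr10:3540240-3554877, plus strand) encodes the enzyme that removes iodine from iodotyrosines, and Bok (chr1:93685660-93695764, plus strand) a member of the Bcl-2 family of cell death regulators. The dentate genes encode a homeobox transcription factor that granule cells need for their identity (Prox1, chr1:190118035-190170714, minus strand), the desmosomal plaque protein desmoplakin (Dsp, chr13:38151294-38198577, plus strand) and a secreted synaptic protein of the C1q family (C1ql2, chr1:120340582-120343174, plus strand). The other dentate genes encode the enzymes lactase (Lct, chr1:128284756-128328318, minus strand) and tryptophan 2,3-dioxygenase, which opens the kynurenine pathway (Tdo2, chr3:81957090-81976202, minus strand). All 10 genes are protein coding. Prox1 shares its locus with the antisense gene Prox1os, which stood at 59.1 to 106 normalized counts in the hippocampus, and Dsp shares its locus with an annotated gene on the other strand. Whether the counting used strand is not given in the sources used here.

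Upstream sequences are shown for 4 dentate genes, because Dsp, Lct and C1ql2 had pairwise correlations of 0.62 to 0.81 between mice, where those of Tdo2 with them lay from -0.20 to 0.25. Each is the 250 bases before the RefSeq transcription start in GRCm38.p6, read 5′ to 3′ on the strand of the gene, with matches to the E-box CANNTG in capitals. The windows are chr13:38151044-38151293 (plus strand), chr1:128328319-128328568 (minus strand), chr1:120340332-120340581 (plus strand) and chr3:81975729-81975978 (minus strand). The last window, of Tdo2, lies inside the gene span given above, so its RefSeq start is not at the annotated end of the gene.
Dsp: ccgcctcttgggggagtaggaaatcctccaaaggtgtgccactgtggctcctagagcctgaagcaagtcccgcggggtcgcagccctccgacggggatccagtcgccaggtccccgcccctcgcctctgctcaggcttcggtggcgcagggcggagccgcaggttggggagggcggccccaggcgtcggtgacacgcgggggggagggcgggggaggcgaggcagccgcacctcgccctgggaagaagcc
Lct: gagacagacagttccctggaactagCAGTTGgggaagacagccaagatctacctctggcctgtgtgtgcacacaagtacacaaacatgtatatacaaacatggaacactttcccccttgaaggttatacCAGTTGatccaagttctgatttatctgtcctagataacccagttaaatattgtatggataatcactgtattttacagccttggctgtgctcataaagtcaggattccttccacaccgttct
C1ql2: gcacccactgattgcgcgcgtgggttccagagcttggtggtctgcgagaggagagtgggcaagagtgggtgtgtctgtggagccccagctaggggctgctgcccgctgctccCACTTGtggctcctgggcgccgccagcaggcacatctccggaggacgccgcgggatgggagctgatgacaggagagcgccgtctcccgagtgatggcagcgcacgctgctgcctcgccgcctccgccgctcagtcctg
Tdo2: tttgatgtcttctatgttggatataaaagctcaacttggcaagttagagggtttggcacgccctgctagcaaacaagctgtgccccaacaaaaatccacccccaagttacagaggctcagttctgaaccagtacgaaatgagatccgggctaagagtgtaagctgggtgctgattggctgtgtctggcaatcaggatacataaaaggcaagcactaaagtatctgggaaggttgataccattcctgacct
E-boxes, which are bound by basic helix-loop-helix factors and read the same on both strands as CANNTG, numbered 2 in the Lct window, 1 in the C1ql2 window and 0 in those of Dsp and Tdo2. At least 1 match was present in 66.2% of the 32851 mouse promoter windows of this length. The neuronal form CAGATG, searched on both strands, was in none of these 4 windows, while 1 match each lay in the windows of Wfs1, Iyd and 1 of the 2 starts of Prox1, against 14.4% of all windows. The windows differed in CG dinucleotides, with 22 in that of Dsp, 20 in that of C1ql2, 3 in that of Tdo2 and 1 in that of Lct, where the median over all windows was 6.

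The genotype labels were checked first with Shank3 itself. Its hippocampal level was 7566 to 8468 normalized counts in WT mice, 5611 to 6108 in Shank3-HT mice and 3678 to 4019.6 in Shank3-HM mice, so the 3 genotypes did not overlap. The normalized totals, 26118607 to 29568983 per sample, are set by the normalization and are not sequencing depth, which the values do not give, and counting error could not be estimated. Some samples stood apart in markers of neighboring tissue. The cortex of Shank3-HM replicate 2 had a summed level of 39841 for 8 markers of striatal spiny projection neurons, against 3891 to 5084 in the WT and Shank3-HT cortex. The striatum of Shank3-HT replicate 5 had a summed level of 69242 for 8 choroid plexus markers, against 466 to 1531 in the WT striatum. In the hippocampus the choroid plexus sum ranged from 3186 to 124692 in WT, from 1350 to 34202 in Shank3-HT and from 6283 to 61508 in Shank3-HM mice, and its part in the values below was not tested.

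The dentate genes were largely confined to the hippocampal samples. In WT mice, Dsp was at 1178 to 1684 normalized counts in the hippocampus (1461 ± 186, SD, n = 5), at 0 to 2.67 in the cortex and at 4.55 to 10.3 in the striatum. C1ql2 was at 1383 to 2070.1 in the hippocampus, 3.68 to 15.2 in the cortex and 6.5 to 13.7 in the striatum. Lct was at 1187 to 1475 in the hippocampus, 16.9 to 73.2 in the cortex and 0.859 to 4.93 in the striatum. These 3 genes were thus at low levels outside the hippocampus, with the least Dsp in the cortex and the least Lct in the striatum. Tdo2 was at 81.3 to 223 in the hippocampus, 4.94 to 36.6 in the cortex and 0.568 to 5.67 in the striatum. Prox1 was at 2935 to 4037 in the hippocampus, 305 to 388 in the cortex and 451 to 588 in the striatum. Unlike the others it was thus well above 0 in all 3 regions, and some cortical interneurons are known to express it.

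With limma, fitted on log2(normalized count + 1) over all 45 samples with Benjamini-Hochberg adjustment over 16708 genes, 8 of the 10 subfield genes were higher in WT hippocampus than in WT cortex, where 23.3% of all tested genes were. This count describes genes known as hippocampal markers, and Dsp, C1ql2 and Iyd had WT cortical means under 10, so that they passed the filter through other samples. Without them it was 5 of 7. The differences of the dentate genes on this log2 scale were 9.50 ± 0.44 (SE) for Dsp, 7.41 ± 0.33 for C1ql2, 5.59 ± 0.35 for Lct, 3.34 ± 0.10 for Prox1 and 3.04 ± 0.53 for Tdo2. The pseudocount of 1 understates the differences of genes near 0. Against the striatum, 9 of 10 were higher, where 28.3% of all tested genes were, and 4 of 5 without Dsp, C1ql2, Lct, Tdo2 and Iyd, which had WT striatal means under 10. The dentate differences there were 8.62 ± 0.35 for Lct, 7.49 ± 0.33 for C1ql2, 7.45 ± 0.44 for Dsp, 5.53 ± 0.53 for Tdo2 and 2.80 ± 0.10 for Prox1. Genes with WT means under 10 in the other region passed the filter through other samples, so their adjusted p values are not read. Of the other dentate differences, the largest limma adjusted p value was 5.59e-06, for Tdo2 against the cortex. The WT samples did not overlap for any of the 5 dentate genes, and 15.5% of all tested genes were likewise higher without overlap against the cortex and 19.4% against the striatum. The 15 hippocampal samples of all genotypes lay above all 15 cortical and all 15 striatal samples for each of the 5 dentate genes. The share of all tested genes that did so over all genotypes is not given here.

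The CA1 and CA3 genes followed 3 patterns. Fibcd1 and Iyd behaved like the dentate genes, with differences from the cortex of 4.29 ± 0.14 and 4.38 ± 0.41 and from the striatum of 3.12 ± 0.14 and 4.65 ± 0.41 on the log2 scale. Fibcd1 was at 3688 to 4682 normalized counts in WT hippocampus, 176 to 238 in cortex and 419 to 506 in striatum. Iyd was a low gene throughout, at 62.0 to 106 in WT hippocampus, 0 to 6.4 in cortex and 1.68 to 4.23 in striatum. For both genes the hippocampus did not overlap with either of the other regions, while Iyd overlapped between cortex and striatum.

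Mpped1 and Bok were shared with the cortex. Mpped1 was at 4756 to 5556 normalized counts in WT hippocampus and at 6528 to 7168 in WT cortex, a difference of -0.38 ± 0.10 (limma adjusted p = 0.00249), with all 5 hippocampal samples below all 5 cortical ones. Among all tested genes 23.3% were lower than in the cortex and 16.5% were lower without overlap. Against the striatum, at 1605 to 2424, Mpped1 was higher by 1.55 ± 0.10. Bok was higher in the hippocampus than in the cortex by 0.49 ± 0.18 (limma adjusted p = 0.0223), at 1212 to 1693 against 889.5 to 1120.0. This call was lost without 1 of 4 samples, with limma adjusted p values of 0.0658 without hippocampus WT replicate 1, 0.0537 without hippocampus WT replicate 3, 0.0512 without cortex WT replicate 1 and 0.0549 without cortex WT replicate 2. Against the striatum, at 165 to 509, Bok was higher by 2.42 ± 0.18.

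Wfs1 had its highest level in the striatum. It was at 2428 to 2848 normalized counts in WT hippocampus, 1921 to 2848 in WT cortex and 3672 to 5143 in WT striatum. The hippocampus was lower than the striatum by -0.69 ± 0.18 on the log2 scale (limma adjusted p = 0.00131), and all WT hippocampal samples lay below all WT striatal ones. This also held for all 15 samples of each region, for which the share of all tested genes is not given here. Among all tested genes 27.8% were lower than in the striatum, and 19.1% were lower in WT mice without overlap. Its difference from the cortex was 0.18 ± 0.18 (95% interval -0.19 to 0.55, limma adjusted p = 0.435), and the 2 regions overlapped.

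**Figure D1:**
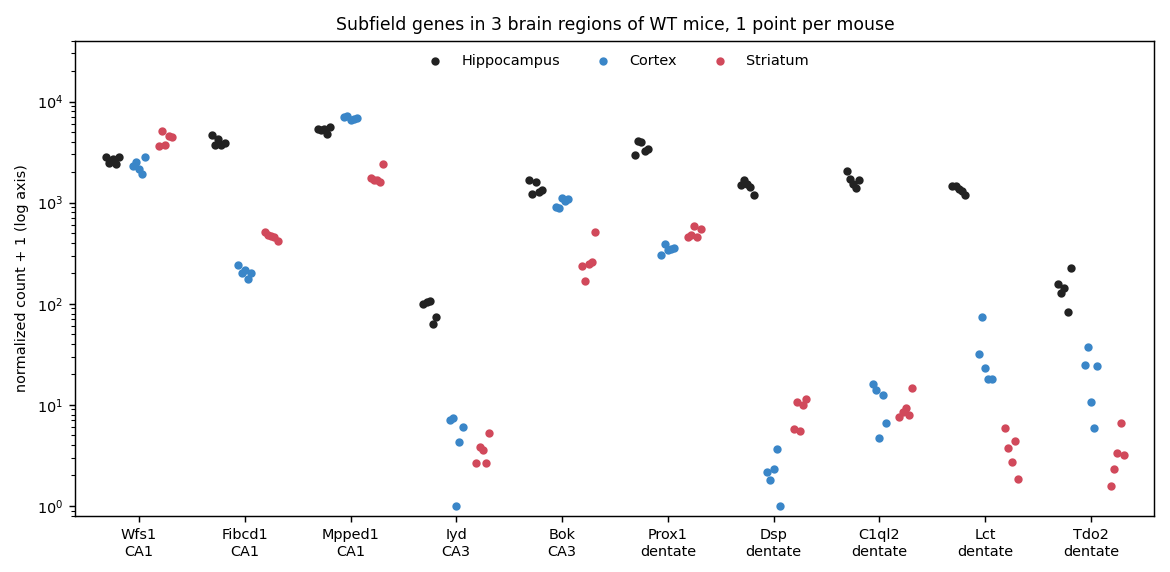
Normalized count plus 1 of the 10 subfield genes on a log axis, with 1 point per WT mouse in the hippocampus (black), cortex (blue) and striatum (red). The hippocampal points lie far above the others for Fibcd1, Iyd and the 5 dentate genes, while Wfs1 is highest in the striatum and Mpped1 in the cortex.

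Levels of different genes were set against each other per kilobase of exon, as normalized counts per kilobase in WT hippocampus. Mpped1 led with 1539 ± 88.7 (SD, n = 5), apart from the next gene, Bok, with 961 ± 139. Bok, Fibcd1 (853 ± 90.8), C1ql2 (841 ± 128) and Wfs1 (699.9 ± 51.8) overlapped with their neighbors in this order. Prox1 (419 ± 56.5), Lct (221 ± 19.0) and Dsp (152 ± 19.4) followed, each apart from the next. Iyd (56.2 ± 12.5) and Tdo2 (42.5 ± 15.1) were the lowest and overlapped. Genes of the 3 subfields were interleaved in this order.

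The genotype comparison in the hippocampus gave no call for any subfield gene. All 10 genes passed the filter of a mean of at least 10 normalized counts. With limma on the 15 hippocampal samples, 0 of 10 passed an adjusted p value of 0.05 in Shank3-HT against WT mice, where 0.00603% of the 16571 tested genes did, which was Shank3 alone. The same count and the same background of 0.00603% held for Shank3-HM against WT and for Shank3-HM against Shank3-HT. At an unadjusted p value under 0.05 there was 1 of 10 in each comparison, namely Lct, Fibcd1 and Iyd in this order, where the shares over all tested genes were 5.26%, 4.73% and 2.09%.

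Among the dentate genes, Lct had the largest estimate in Shank3-HT mice. It was at 1457, 1475, 1379, 1316 and 1187 normalized counts in the WT mice, at 882, 1176, 1135, 1136 and 1323 in the Shank3-HT mice and at 1106, 1268, 1036, 1329 and 1289 in the Shank3-HM mice. The lowest Shank3-HT mouse stood well below the rest, and the genotypes overlapped. The log2 difference from WT was -0.28 ± 0.10 in Shank3-HT (95% interval -0.48 to -0.07, limma adjusted p = 0.926, exact permutation p = 0.0238 two-sided) and -0.18 ± 0.10 in Shank3-HM mice (-0.38 to 0.02, limma adjusted p = 0.920).

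Dsp was at 1479.7, 1684, 1545, 1417 and 1178 normalized counts in WT, at 1009, 1277, 1480.0, 1344 and 1637 in Shank3-HT and at 1424, 1297, 1230.2, 1594 and 1366 in Shank3-HM mice. The genotypes overlapped widely, and the log2 differences from WT were -0.12 (95% interval -0.36 to 0.12) in Shank3-HT and -0.08 (-0.32 to 0.16) in Shank3-HM mice. C1ql2 had means of 1682 ± 255, 1544 ± 176 and 1502 ± 163 (SD, n = 5) in the order WT, Shank3-HT, Shank3-HM. Its differences were -0.12 (-0.34 to 0.10) and -0.16 (-0.37 to 0.06). Prox1, the transcription factor of the list, was closest to WT, with differences of 0.05 (-0.16 to 0.25) and 0.01 (-0.20 to 0.22). Tdo2 was the least certain, at 81.3 to 223 in WT, 87.9 to 175 in Shank3-HT and 124 to 202 in Shank3-HM mice. Its intervals reached from -0.62 to 0.34 in Shank3-HT and from -0.27 to 0.69 in Shank3-HM mice.

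Among the CA1 genes, Fibcd1 was at 4682, 3717, 4311, 3688 and 3864 normalized counts in WT, at 4022, 3877, 3344, 3602 and 4070.4 in Shank3-HT and at 3855, 3565, 3427, 3671 and 3687 in Shank3-HM mice. The pair of highest values was in WT mice, and the other WT mice lay within the range of the mutants. The log2 differences were -0.10 (-0.24 to 0.05) for Shank3-HT mice and -0.15 ± 0.07 in Shank3-HM mice (95% interval -0.29 to -0.0042, limma adjusted p = 0.920, exact permutation p = 0.0476 two-sided). Without WT replicate 1, the highest value, the latter was -0.0956 (limma adjusted p = 1). Wfs1 was at 2428 to 2848 in WT, 2397 to 3067 in Shank3-HT and 2515 to 3189 in Shank3-HM mice, with differences of 0.06 (-0.10 to 0.22) and 0.14 (-0.03 to 0.30). Mpped1, at 4756 to 5556, 5096 to 6209 and 5227 to 5894, had differences of 0.10 (-0.02 to 0.22) and 0.06 (-0.06 to 0.17).

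Of the CA3 genes, Iyd did not overlap between the 2 mutant genotypes, without a call. It was at 97.9, 104, 106, 62.0 and 73.4 normalized counts in WT, at 102, 103, 110.2, 102 and 93.4 in Shank3-HT and at 80.1, 73.4, 76.6, 79.5 and 83.8 in Shank3-HM mice. All 5 Shank3-HM mice lay below all 5 Shank3-HT mice, as did 0.223% of all tested genes, while the WT mice spanned both groups. The log2 difference between Shank3-HM and Shank3-HT mice was -0.37 ± 0.14 (95% interval -0.67 to -0.08, limma adjusted p = 1, exact permutation p = 0.00794, the smallest that 5 against 5 samples allow). Bok was at 1212 to 1693 in WT, 1259 to 1383 in Shank3-HT and 1065 to 1599.7 in Shank3-HM mice, with differences from WT of -0.10 (-0.31 to 0.11) and -0.17 (-0.38 to 0.04).

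**Figure D2:**
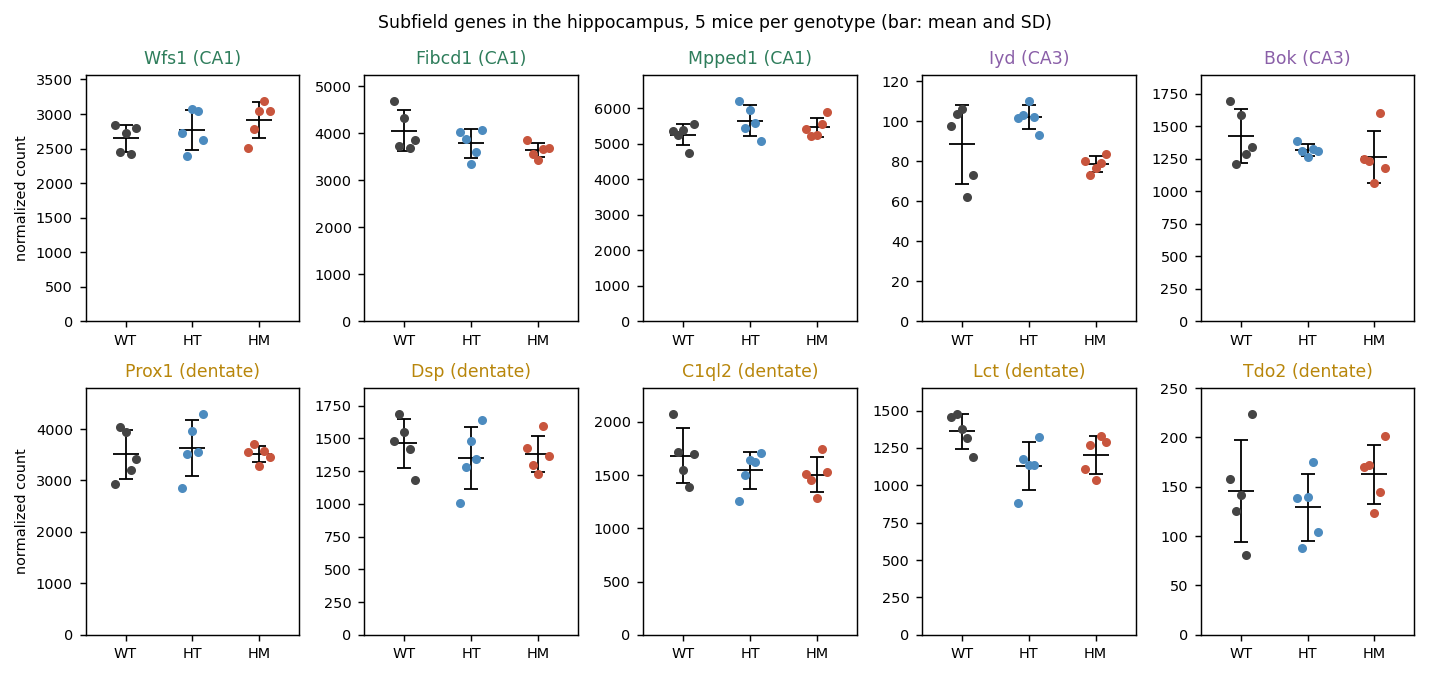
Normalized counts of the 10 subfield genes in the hippocampus, with 1 point per mouse and the mean and SD as bars, for 5 WT, 5 Shank3-HT and 5 Shank3-HM mice. The genotypes overlap for each gene against WT, and the clearest gap is in Iyd, where Shank3-HM (73.4 to 83.8) lies below Shank3-HT (93.4 to 110.2).

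**Figure D3:**
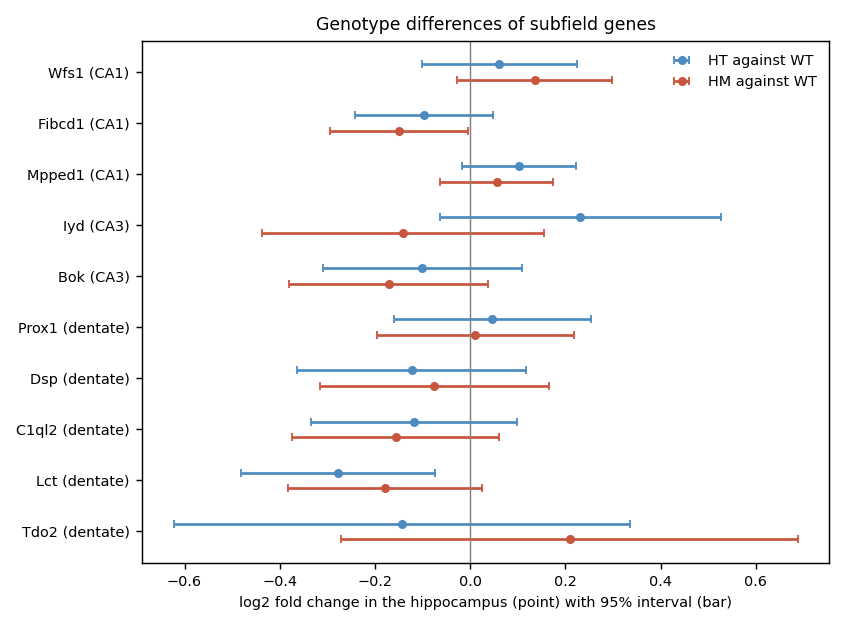
Log2 differences from WT in the hippocampus (points) with 95% intervals (bars) for Shank3-HT (blue) and Shank3-HM (red). The intervals of Lct in Shank3-HT (-0.48 to -0.07) and of Fibcd1 in Shank3-HM mice leave out 0, before any adjustment, and that of Tdo2 is the widest.

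The spread within genotypes set how small a difference could be seen. On the log2 scale the SD within genotypes in the hippocampus was lowest for Mpped1 (0.09) and highest for Tdo2 (0.41), with 0.12 for Fibcd1, 0.13 for Wfs1, 0.17 for Lct and Bok, 0.18 for Prox1 and C1ql2, 0.20 for Dsp and 0.21 for Iyd. The median over all tested genes was 0.16. A difference for Tdo2 of the size seen for Lct would thus lie well within the scatter of the mice.

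The subfields were then set against each other within each mouse, as the mean log2 level of the CA1, CA3 or dentate genes minus that of another subfield. CA1 minus dentate was 1.80 ± 0.10 (SD, n = 5) for WT mice, 1.95 ± 0.19 for Shank3-HT mice and 1.85 ± 0.11 for Shank3-HM mice. CA3 minus dentate was -1.64 ± 0.16, -1.45 ± 0.19 and -1.76 ± 0.08, and CA1 minus CA3 was 3.44 ± 0.17, 3.40 ± 0.05 and 3.61 ± 0.09. The ranges of the mutants and WT overlapped for CA1 minus dentate, at 1.64 to 1.91 in WT, 1.78 to 2.26 in Shank3-HT and 1.78 to 2.04 in Shank3-HM mice. The 2 mutants did not overlap in the other balances. CA3 minus dentate was at -1.66 to -1.18 in Shank3-HT, -1.85 to -1.67 in Shank3-HM and -1.84 to -1.46 in WT mice, and CA1 minus CA3 at 3.32 to 3.44, 3.49 to 3.72 and 3.27 to 3.63 in the same order, so that the WT mice overlapped with both. Both of these balances hold the CA3 mean of Iyd and Bok, of which Iyd alone lay apart between the mutants, so they in part repeat its values. With the median over genes in place of the mean, CA1 minus dentate differed from WT by 0.0207 for Shank3-HT mice and -0.0792 for Shank3-HM mice, in place of 0.145 and 0.0519, so the sign turned for the latter. These scores over chosen genes are descriptions and were not tested.

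Between mice, the dentate genes other than Tdo2 were positively correlated with each other. Over the 15 hippocampal samples, all 45 pairs of the 10 genes were correlated on the log2 scale, and 1 pair passed an adjusted p value of 0.05 over the 45 pairs. This was Dsp and Lct, with Pearson's r = 0.81 (permutation p = 0.00045, adjusted p = 0.0203, 100000 permutations) and Spearman's rho = 0.71 (permutation p = 0.00403, adjusted p = 0.0816). As the values above show, the Shank3-HT mouse with the lowest Dsp (1009) also had the lowest Lct (882), and the WT mouse with the highest Dsp (1684) had the highest Lct (1475). With values centered within genotypes r was 0.84 (permutation p = 6e-05, adjusted p = 0.0027). Without the 2 samples farthest from the median of Dsp r was 0.69. The adjusted call was lost without WT replicate 2, Shank3-HT replicate 1 or Shank3-HM replicate 3, and r stayed between 0.67 and 0.85 without any 1 sample.

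The other pairs among Prox1, Dsp, C1ql2 and Lct had r from 0.25 to 0.69. C1ql2 and Lct reached 0.69 (rho 0.68, permutation p = 0.00463 and 0.00725, adjusted p = 0.0658 and 0.0816), and 0.44 without the 2 farthest samples. Prox1 and Dsp reached 0.67 (rho 0.71, permutation p = 0.00585 and 0.00468, adjusted p = 0.0658 and 0.0816), 0.71 without the 2 farthest samples and 0.73 within genotypes (permutation adjusted p = 0.0430). Dsp and C1ql2 reached 0.62 (rho 0.68, permutation p = 0.0138 and 0.00644, adjusted p = 0.124 and 0.0816). The median r of these 6 pairs, set apart from those of Tdo2 after their values were seen, was 0.65, while that of all 10 dentate pairs was 0.33 and that of all 45 pairs 0.14. The 4 pairs of Tdo2 with these genes had r from -0.20 to 0.25, with a median of -0.08. The highest of them, C1ql2 and Tdo2 (0.25, and 0.34 within genotypes), was near the lowest of the 6, Prox1 and C1ql2 (0.25 and 0.30). Tdo2 had its highest coefficients with CA1 genes, at 0.55 for Wfs1 (rho 0.52, permutation p = 0.0328 and 0.0510, adjusted p = 0.211 and 0.328) and 0.51 for Mpped1 (rho 0.45, permutation p = 0.0515 and 0.0924, adjusted p = 0.252 and 0.450), and the first was 0.23 without the 2 farthest samples.

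The CA1 genes showed no common sign. Their 3 pairs had r of -0.30 (Wfs1 and Fibcd1), -0.07 (Fibcd1 and Mpped1) and 0.48 (Wfs1 and Mpped1), and the pair of CA3 genes had 0.27. Fibcd1 and Bok, of CA1 and CA3, reached 0.72 (rho 0.59, permutation p = 0.00306 and 0.0247, adjusted p = 0.0658 and 0.222). This relation rested largely on 2 WT mice, and r was 0.38 without them. Over the 15 pairs of a CA1 and a dentate gene, 7 coefficients were positive and 8 negative, from -0.53 (Mpped1 and Lct) to 0.55, with a median of -0.07. In all, 8 of 45 pairs had an unadjusted permutation p value under 0.05. The correlations share the libraries and their normalization.

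**Figure D4:**
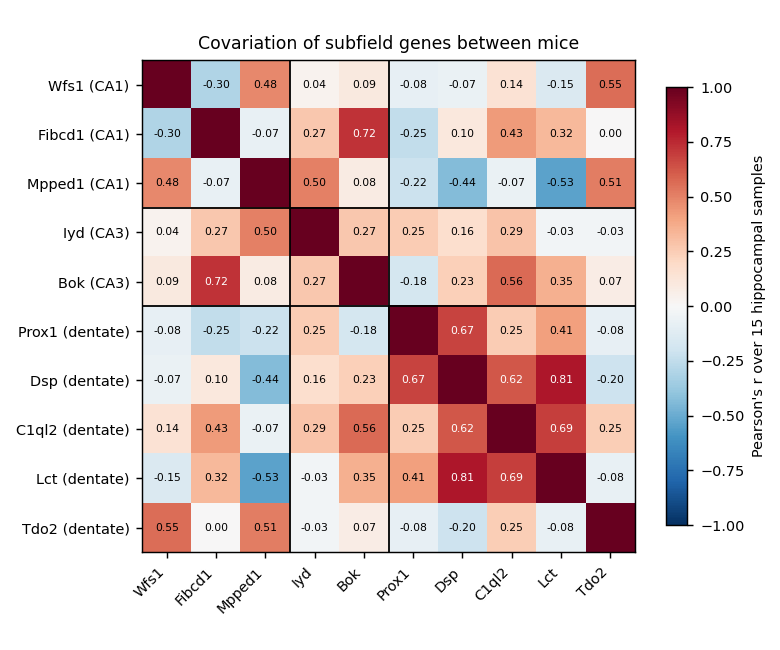
Pearson's r of each pair of subfield genes over the 15 hippocampal samples, from blue (negative) to red (positive), with lines between the CA1, CA3 and dentate genes. The block of Prox1, Dsp, C1ql2 and Lct is positive throughout (0.25 to 0.81), while the pairs of Tdo2 with these genes run from -0.20 to 0.25.

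Single genes were compared with the mean standardized log2 level of each subfield's listed genes, over the 15 hippocampal samples. Those with the highest Pearson's r, of 12447 genes with a mean of at least 100, were named. For CA1 these were Polr2f (r = 0.87), Snrnp27 (0.85) and Prkar1b (0.85). For CA3 they were Cdip1 (0.90), Spop (0.89) and Epdr1 (0.88), and for the dentate gyrus Gng7 (0.88), Gm4724 (0.83) and Btbd3 (0.82). These are the highest of many coefficients and are given as a description. The listed CA1 genes had r of -0.30 to 0.48 with each other, the CA3 pair 0.27 and the dentate genes -0.20 to 0.81. The means are thus not levels that all listed genes of a subfield share.

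Further genes of the same subfields, listed beside the 10, also gave no call in either mutant. The lists held 5 CA1, 5 CA2, 6 CA3, 5 dentate, 5 immature dentate neuron, 3 subiculum and 5 ventral hippocampus genes, and 0 of them passed an adjusted p value of 0.05 in Shank3-HT or Shank3-HM mice. The medians of the further CA1, CA3 and dentate lists were 0.04, -0.05 and 0.01 in Shank3-HT and 0.05, -0.05 and 0.05 in Shank3-HM mice on the log2 scale, where the median over all tested genes was 0.01 and 0.00. For the CA2, subiculum and ventral lists they were -0.20, 0.11 and 0.07 for Shank3-HT mice and -0.12, 0.21 and 0.19 for Shank3-HM mice. Of the immature dentate neuron list, Eomes, a transcription factor of neuronal progenitors, stood at 1.20 ± 0.55 (limma adjusted p = 0.920) and Dcx, a microtubule-binding protein of migrating neurons, at 0.34 ± 0.15 (limma adjusted p = 0.920) in Shank3-HM mice. The median of this list was 0.23 for Shank3-HT mice and 0.30 for Shank3-HM mice. The vesicular glutamate transporter gene Slc17a6, of the subiculum list, stood at 0.50 ± 0.24 and the thyrotropin-releasing hormone receptor gene Trhr, of the ventral list, at 0.36 ± 0.18 in the same mice (limma adjusted p = 0.920 for both). The CA2 genes with the largest estimates in Shank3-HM mice were Avpr1b, a vasopressin receptor gene, at -0.43 ± 0.33 and Rgs14, a regulator of G protein signaling, at -0.16 ± 0.10. In Shank3-HT mice 2 of the 5 CA2 genes were lower at an unadjusted p value under 0.05, where 5.26% of all tested genes differed, and they are named here after their values were seen, as are those of the other lists with such counts of 3. The CA2 genes were Map3k15, a kinase gene, at -0.49 ± 0.15 (limma adjusted p = 0.865) and Amigo2, an adhesion molecule gene, at -0.20 ± 0.08 (limma adjusted p = 0.926). In Shank3-HM mice 3 of the 5 immature dentate neuron genes were higher at that unadjusted level, where 4.73% of all tested genes differed, namely Eomes, Dcx and the transcription factor gene Sox11 (0.20 ± 0.08, limma adjusted p = 0.920). In Shank3-HT mice 3 of 5 cortical projection neuron genes were higher at that level, namely the transcription factor genes Rorb (0.29 ± 0.08, limma adjusted p = 0.828), Cux2 (0.26 ± 0.12) and Tbr1 (0.16 ± 0.07, limma adjusted p = 0.926 for both). Those with the largest estimates of the further dentate list in Shank3-HM mice were C1ql3, a relative of C1ql2, at 0.12 ± 0.06 and the cation channel gene Trpc6 at 0.05 ± 0.11. Grik4, a kainate receptor subunit of CA3, stood at -0.15 ± 0.07 in Shank3-HM mice (limma adjusted p = 0.920). Lists for choroid plexus, thalamus, oligodendrocytes, astrocytes, microglia, endothelial cells, inhibitory neurons, cortical and striatal projection neurons and neurons in general likewise held 0 genes past the threshold in either mutant hippocampus.

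Outside the hippocampus, Fibcd1 in the striatum gave the clearest genotype difference. It was at 506, 483, 462, 458 and 419 normalized counts in WT, at 519, 354, 428, 410.5 and 356 in Shank3-HT and at 398, 308, 362, 382 and 279 in Shank3-HM mice. All 5 Shank3-HM mice lay below all 5 WT mice, as did 0.752% of the tested genes, and the Shank3-HT mice spanned both groups. The log2 difference in Shank3-HM mice was -0.44 ± 0.11 (95% interval -0.68 to -0.20, limma p = 0.00115, adjusted p = 0.210, exact permutation p = 0.00794), which did not pass the threshold. With the replicate number as a block this difference was called (limma adjusted p = 0.0317). The share of all tested genes called with this block is not given here, and the labels do not pair mice of different genotypes. In Shank3-HT mice it was -0.18 ± 0.11 (limma adjusted p = 0.769). Without the block, 0 of the 7 subfield genes tested in the striatum passed in Shank3-HM mice, where 0.182% of 16482 genes did, and 0 of 7 passed in Shank3-HT mice, where 0.00607% did. At an unadjusted p value under 0.05 there were 2 of 7 in each, where 7.43% of all tested genes were. Iyd, Lct and Tdo2 had striatal means below 10 and were not tested.

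Striatal Mpped1 was at 1744, 1675, 1658, 1605 and 2424 normalized counts in WT and at 1788, 1368, 1384, 1327 and 1467 in Shank3-HM mice, a log2 difference of -0.30 ± 0.12 (limma adjusted p = 0.576, exact permutation p = 0.0397). One WT mouse was far above the others, and without it the difference was -0.20 ± 0.10 (limma adjusted p = 0.693). Without the same mouse, WT replicate 5, Bok stood at 0.54 ± 0.18 in Shank3-HM mice (limma adjusted p = 0.441), in place of 0.31 ± 0.23 with all mice (limma adjusted p = 0.849). This sample had the lowest summed level of striatal spiny projection neuron markers in the WT striatum, at 144017 against 178564 to 195992, and the highest of 5 cortical projection neuron markers, at 2620 against 1268 to 1559, and their part in its values was not tested. In Shank3-HT mice, 2 dentate genes had low unadjusted p values in the striatum. Prox1 was at 452, 477, 588, 451 and 553 in WT and 523, 696, 683, 521 and 744 in Shank3-HT mice, with overlap and a difference of 0.32 ± 0.11 (limma adjusted p = 0.632, exact permutation p = 0.0556). C1ql2 was at 6.5, 7.54, 8.24, 6.96 and 13.7 in WT and 13.0, 25.2, 18.8, 8.55 and 27.7 in Shank3-HT mice, also overlapping, with a difference of 0.97 ± 0.32 (limma adjusted p = 0.632, exact permutation p = 0.0317). In Shank3-HM mice its difference was 0.59 ± 0.32 (limma adjusted p = 0.744, exact permutation p = 0.0397) and, without WT replicate 5, 0.75 ± 0.33 (limma adjusted p = 0.607). Without Shank3-HT replicate 5, the sample with high choroid plexus markers, the differences of Prox1 and C1ql2 in Shank3-HT mice were 0.26 ± 0.11 and 0.80 ± 0.33 (limma adjusted p = 0.858 for both). Of 8 oligodendrocyte markers, 7 were also higher in the Shank3-HT striatum at an unadjusted p value under 0.05 and 0 after adjustment, with a median log2 difference of 0.36, and so were 3 of 6 astrocyte markers, with a median of 0.19. The summed oligodendrocyte level was 183800 to 243982 in WT and 200054 to 340253 in Shank3-HT mice, and the astrocyte level 23284 to 25958 and 23833 to 28742. Their part in the values of Prox1 and C1ql2 was not tested.

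In the cortex 8 subfield genes were tested and 0 passed, in Shank3-HT mice (background 0%, with 2.68% of 16507 genes at an unadjusted p value under 0.05) and in Shank3-HM mice (background 0.0121%, with 5.49% at an unadjusted p value under 0.05). Shank3 itself was not called in the Shank3-HT cortex (-0.38 ± 0.07, limma adjusted p = 0.288). Its values there, 5748 to 6607 normalized counts, did not overlap with the WT ones, 6985 to 8717. The test thus missed the deleted gene, and the lack of calls in that comparison says little about smaller differences. At an unadjusted p value under 0.05 there was Tdo2 in Shank3-HT mice. It was at 23.5, 36.6, 9.78, 4.94 and 23.2 normalized counts in WT, at 2.98, 4.06, 1.26, 3.29 and 8.46 in Shank3-HT and at 19.5, 2.98, 39.2, 21.2 and 4.71 in Shank3-HM mice. Shank3-HT mice were low but overlapped with WT, and the log2 difference was -1.92 ± 0.63 (limma adjusted p = 1, exact permutation p = 0.0159). Dsp was too low in the cortex to be tested, at 1.14, 0.789, 1.33, 2.67 and 0 in WT, 5.69, 4.31, 8.21, 3.78 and 6.08 in Shank3-HT and 19.6, 8.64, 5.95, 1.06 and 4.93 in Shank3-HM mice. All 5 Shank3-HT mice lay above all 5 WT mice (exact permutation p = 0.00794). Of the tested genes, none of them as low as Dsp, 0.297% did likewise. Shank3-HM mice overlapped with WT (exact permutation p = 0.0317). The highest cortical Dsp value, 19.6, was far below the lowest hippocampal one, 1009. In the cortex of Shank3-HM replicate 2, the sample with high striatal markers, Wfs1 stood at 5678 and Fibcd1 at 383, above the other 4 Shank3-HM samples, which were at 1490.1 to 2228 and 163 to 204. Without this sample, their log2 differences from WT were -0.25 ± 0.14 and -0.17 ± 0.12, in place of 0.06 ± 0.25 and 0.04 ± 0.18, so the estimates for both genes changed sign without passing the test (limma adjusted p = 0.939 and 0.966).

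**Figure D5:**
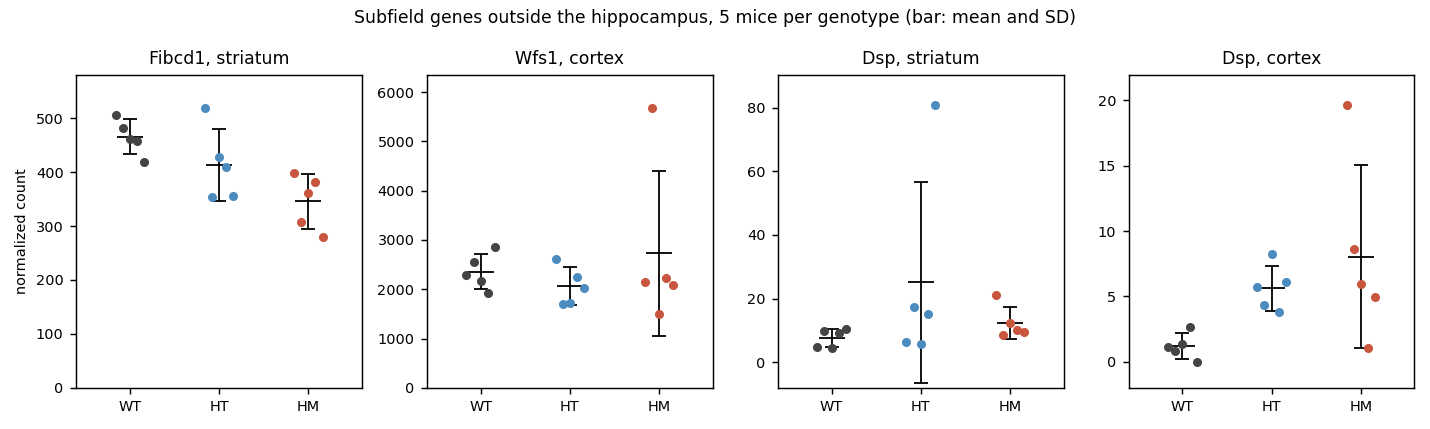
Normalized counts of Fibcd1 in the striatum, Wfs1 in the cortex and Dsp in the striatum and cortex, with 1 point per mouse and the mean and SD as bars. Striatal Fibcd1 lies lower in Shank3-HM (279 to 398) than in WT mice (419 to 506), and single samples stand far from their group in cortical Wfs1 (5678) and striatal Dsp (80.7).

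Whether a genotype difference itself differed between regions was tested by interaction contrasts in the fit of all 45 samples. With limma, 0 of 10 subfield genes passed for either mutant against the cortex (background 0%, with 3.35% of genes at an unadjusted p value under 0.05 for Shank3-HT and 4.45% for Shank3-HM mice) or the striatum (background 0% in Shank3-HT, where 5.60% of genes were at that unadjusted level, and 0.0718% in Shank3-HM mice, where 5.37% were). At that unadjusted level were 2 of the 10 genes for Shank3-HT and 1 for Shank3-HM mice against the cortex, and likewise 2 and 1 against the striatum. Dsp and Iyd were too low to be tested within the cortex, and Iyd, Lct and Tdo2 within the striatum, and they entered this fit through their hippocampal levels, so their estimates in those contrasts are not read. This leaves 0 of 8 genes against the cortex and 0 of 7 against the striatum past the threshold. The count without an adjustment against the cortex included Dsp for both mutants. Tdo2 had an estimate of 1.78 ± 0.74 against the cortex for Shank3-HT mice (limma adjusted p = 1). C1ql2 had -1.09 ± 0.47 against the striatum for the same mice (limma adjusted p = 0.861). The estimates for Mpped1 against the striatum were 0.33 ± 0.15 for Shank3-HT mice and 0.36 ± 0.15 for Shank3-HM mice (limma adjusted p = 0.870 and 0.837). All these comparisons of one region share their WT samples between the 2 mutants.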

How the data were processed

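The authors, per their methods and the labels, prepared TruSeq stranded mRNA libraries, quantified transcripts with Salmon 1.1.0 with GC bias correction (build GRCm38), imported them with tximport and normalized them with DESeq2 (1.26.0 with R 3.6.2 per the submitters' processing notes, while the paper's methods name later versions of both). The deposited signal values are normalized counts with decimals, so tests of whole reads were not applied. Columns coded KI were taken as the knock-out samples, termed Shank3-HM. Gene models were GENCODE vM21, and 18120 of 18135 identifiers matched. The labels number replicates without naming mice, and the paper gives 5 mice per group.

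Values were transformed as log2(value + 1) and genes with a mean of at least 10 were tested with limma 3.58.1 (eBayes with trend, R 4.3.3), per region for genotypes and over the 9 groups for regions and interactions, with Benjamini-Hochberg adjustment over all tested genes and a threshold of 0.05. Exact permutation tests were two-sided. Python 3.11.15, scipy 1.17.1 and matplotlib 3.10.9 were used. Promoters are from RefSeq, which held all 10 genes. Named are all 10 genes, Shank3 and the 3 genes most correlated with the mean of each subfield's genes. From some lists, genes among those with the largest hippocampal Shank3-HM differences are named, and others after their values were seen. The remaining genes of the lists are not named. One gene of the further CA1 list is not reported here. The replicate number was not used as a block, except as an alternative. The genes were taken by name with no threshold on values, but they and the lists were chosen with earlier results of these data known. The scripts were tested on simulated data.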

Additional observations from a re-analysis of the deposited data

Results flagged for a closer look

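Of 90 groups of 5 samples (10 genes in 3 regions and 3 genotypes), 9 held a sample far from the others by Dixon's criterion, which chance alone gives in about 1 group of 20. They fell on 4 samples. In the cortex of Shank3-HM replicate 2, Wfs1 was at 5678 normalized counts (others 1490.1 to 2228) and Fibcd1 at 383 (others 163 to 204), in the sample whose striatal neuron markers were also high. In the striatum of Shank3-HT replicate 5, Dsp was at 80.7 (others 5.77 to 17.5), Tdo2 at 22.3 (others 1.21 to 4.82) and Iyd at 7.23 (others 0.904 to 1.87), in the sample whose choroid plexus markers were also high. In the striatum of WT replicate 5, Mpped1 was at 2424 (others 1605 to 1744), Bok at 509 (others 165 to 257) and C1ql2 at 13.7 (others 6.5 to 8.24), in the WT sample with the lowest striatal and highest cortical projection neuron marker sums. In the cortex of WT replicate 2, Lct was at 73.2 (others 16.9 to 30.8). Without this sample, cortical Lct stood at 1.03 ± 0.34 in Shank3-HT against WT mice on the log2 scale (limma adjusted p = 1), in place of 0.68 ± 0.39. None of the 9 values was in the hippocampus. The cause of these values was not tested.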

How the results depend on the processing

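The alternatives were a pseudocount of 0.1, quantile normalization, no filter or a mean of at least 100, no trend, a fit of the 2 compared groups alone, the replicate block, and each replicate left out in turn. Replicate numbers were checked for pairing, and samples of the same number in different regions had a median correlation of 0.131, with 27 of 45 pairs over 0.1, against -0.0293 and 16 of 180 for other numbers. Within a region, between genotypes, these were 0.0538 and 15 of 45 against -0.0124 and 39 of 180. Not every pair was over 0.1 and the labels name no shared mouse, so the block stayed an alternative, and whether regions came from the same mice is not settled. With the replicate block, 1 subfield gene was called in striatal Shank3-HM mice, namely Fibcd1 (-0.44, limma adjusted p = 0.0317), and no other count of called genes changed, those between regions and of interactions included. The share of all tested genes called with the block is not given here. Within a region the block ties mice of different genotypes by number alone. The count of genes higher in WT hippocampus was 6 to 8 against the cortex and 7 to 9 against the striatum, lowest with a mean of at least 100, where fewer genes were tested. Counts of called subfield genes in all other genotype and interaction comparisons stayed at 0 under every alternative run. The number of correlated pairs was 2 with values centered per genotype, 0 with Spearman's rho and 0 to 4 on leaving out each sample. With the median over genes, the difference from WT in CA1 minus dentate was 0.0207 for Shank3-HT mice and -0.0792 for Shank3-HM mice, in place of 0.145 and 0.0519. Of 624 alternative values of single-gene genotype differences in the hippocampus and in the striatum of Shank3-HM mice, 613 kept their direction and side of the threshold and 10 changed sign, all on leaving out 1 replicate. Of the other comparisons, single genes were refitted without the named samples alone, and there, beside cortical Wfs1 and Fibcd1, cortical Tdo2 in Shank3-HM moved from -0.36 to 0.08 without Shank3-HM replicate 2 and striatal Bok in Shank3-HT from -0.11 to 0.13 without WT replicate 5. In the hippocampus the ranges on leaving out each replicate were -0.0164 to 0.1311 for Prox1 in Shank3-HT against WT, -0.3339 to 0.0277 for Tdo2 in Shank3-HT against WT, -0.0511 to 0.0639 for Prox1 in Shank3-HM against WT, -0.0528 to 0.1216 for Dsp in Shank3-HM against Shank3-HT, -0.1202 to 0.0273 for Prox1 in Shank3-HM against Shank3-HT and -0.1102 to 0.0156 for C1ql2 in Shank3-HM against Shank3-HT. The sequencing depth is unknown and its effect could not be assessed.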
